A study of Mus musculus with 6 samples.

Results

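The Hox genes are transcription factor genes that record the position of a cell along the body, and their levels were followed here in fibroblasts sorted from mouse ears. A probe set was taken where the annotation of the array named 1 gene, with a symbol made of Hoxa, Hoxb, Hoxc or Hoxd and a number. This gave 48 probe sets of 45037, for 33 genes of the 18193 that the array measured. Cancer-associated fibroblasts (CAF, 3 arrays) came from visibly dysplastic ears of male K14-HPV16 mice, in which a keratin 14 promoter drives human papillomavirus type 16 genes in basal keratinocytes, so that the fibroblasts themselves are not the cells targeted by the transgene. Normal dermal fibroblasts (NDF, 3 arrays) came from ears of male FVB/n mice that carry no transgene. All mice were 4 months old, and cells were sorted by flow cytometry for PDGFRα, a growth factor receptor on the surface of fibroblasts. The labels name 15 mice per genotype and call the arrays biological repetitions, without saying whether each was a separate pool, so p-values measure only the spread between these samples.

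Hox genes lie in 4 clusters, HoxA to HoxD, and genes of like position in different clusters are called paralogues and share a number. In the embryo low numbers are used towards the head and high numbers towards the tail and the tips of the limbs. Adult fibroblasts keep much of this pattern, which is why Hox levels are read as a memory of where in the skin a fibroblast arose. The external ear forms from tissue of the pharyngeal arches, and in the mouse Hoxa2 gives the second arch its identity and is needed for the ear to form. Hox proteins bind DNA together with cofactors of the Pbx and Meis families, and their clusters are kept silent or open by Polycomb and Trithorax complexes.

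The promoters of 4 genes are shown: the adjacent genes Hoxd8, Hoxd9 and Hoxd10, and Hoxa2. Hoxc13, the Hox gene with the widest CAF minus NDF difference, is not among them. Each printed promoter runs 5′ to 3′ over 250 bases before and 50 bases after the gene's start. The source was RefSeq (GRCm38.p6), which held a promoter for 19 of the 33 genes. Capitals mark matches, on either strand, to the Pbx-Hox composite motif TGATNNAT, to the TATA motif TATAAA or to the CCAAT motif. No matches to different motifs overlapped in these windows.
Hoxd8, chr2:74704365-74704664, + strand: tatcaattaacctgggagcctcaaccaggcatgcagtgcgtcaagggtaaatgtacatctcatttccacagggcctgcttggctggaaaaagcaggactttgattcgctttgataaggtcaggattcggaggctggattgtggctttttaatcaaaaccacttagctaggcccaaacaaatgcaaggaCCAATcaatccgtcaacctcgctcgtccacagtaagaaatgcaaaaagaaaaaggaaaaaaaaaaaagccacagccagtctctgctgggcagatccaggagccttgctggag
Hoxd9, chr2:74697513-74697812, + strand: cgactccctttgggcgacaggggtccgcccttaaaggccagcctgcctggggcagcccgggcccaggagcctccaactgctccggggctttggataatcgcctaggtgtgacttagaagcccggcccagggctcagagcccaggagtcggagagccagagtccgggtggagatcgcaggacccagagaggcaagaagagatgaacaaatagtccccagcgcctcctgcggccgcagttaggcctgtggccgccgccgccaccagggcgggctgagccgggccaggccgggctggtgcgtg
Hoxd10, chr2:74691641-74691940, + strand: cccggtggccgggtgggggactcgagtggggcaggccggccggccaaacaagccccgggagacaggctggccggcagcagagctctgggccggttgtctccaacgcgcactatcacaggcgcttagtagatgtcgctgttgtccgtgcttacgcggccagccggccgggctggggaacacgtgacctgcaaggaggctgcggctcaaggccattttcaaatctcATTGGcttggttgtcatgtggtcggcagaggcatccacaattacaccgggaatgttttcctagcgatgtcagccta
Hoxa2, chr6:52164782-52165081, - strand: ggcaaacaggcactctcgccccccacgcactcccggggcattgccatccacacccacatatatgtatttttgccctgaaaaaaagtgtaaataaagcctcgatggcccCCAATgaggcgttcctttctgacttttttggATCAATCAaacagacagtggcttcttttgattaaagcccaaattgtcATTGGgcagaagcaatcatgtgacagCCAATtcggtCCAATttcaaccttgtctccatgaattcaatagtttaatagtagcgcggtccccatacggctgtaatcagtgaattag
The Hoxa2 window held 1 match to the Pbx-Hox motif and 4 to CCAAT. Hoxd8 and Hoxd10 had 1 CCAAT match each, and the Hoxd9 window had no match. Of all 32851 promoters of this length 8.85% held the Pbx-Hox motif, 37.4% CCAAT and 13.6% TATAAA, which none of the 4 windows held. The Pbx-Hox motif was present for 3 of the 19 Hox genes with a promoter. The Hoxd9 and Hoxd10 windows were rich in G and C, at 68.3% and 62.7%, against 46.7% for Hoxd8, 45.7% for Hoxa2 and a median of 52.7% over all promoters. Such matches describe letters only, not bound sites.

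Values are the authors' log2 intensities, which ran from 2.20 to 14.60 with array medians of 4.73 to 4.87. The number of arrays limits the precision, and the median standard error of a CAF minus NDF difference was 0.25. Replicates correlated at 0.916 to 0.980 among CAF and at 0.9748 to 0.983 among NDF arrays, and CAF replicate 3 stood apart, with a quality weight of 0.17 against 0.82 to 2.56 for the others. All 9 measured dermal fibroblast markers were above background, and their mean level was 11.89 to 12.30 in CAF and 12.19 to 12.32 in NDF. Marker lists of 5 other kinds of cell were higher on every CAF array than on any NDF array, with mean levels of 9.03 to 10.26 against 8.38 to 8.53 for keratinocytes, 6.99 to 8.14 against 5.10 to 5.45 for macrophages and dendritic cells, 6.84 to 8.02 against 3.95 to 4.80 for neutrophils, 5.04 to 6.35 against 3.73 to 4.07 for lymphocytes and 6.74 to 7.80 against 5.25 to 5.61 for endothelium. Melanocyte and Schwann cell markers were at 5.83 to 6.40 in CAF and 5.62 to 6.05 in NDF, and muscle and pericyte markers at 5.87 to 6.03 and 5.73 to 6.05. On all arrays chondrocyte markers were prominent, with 9 of 10 above background, and their mean level was 9.08 to 9.71 in CAF and 9.92 to 10.29 in NDF. In sorted bulk samples fewer cells of a type and less RNA per cell cannot be told apart.

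The sorted ear samples showed a sparse Hox pattern, in which Hoxd8 and Hoxd9 were far above background. Hoxa2 was also above it on every array, at 5.78 to 7.70, and most other members were near it or below. Keratinocyte and chondrocyte markers were present on all arrays, and which cells carried the Hox signals was not tested. Background was set at 4.36, the 95th percentile of the mean levels of 84 probe sets for olfactory, vomeronasal and taste receptor genes, which dermal fibroblasts are not known to express. By this level 8 of 33 Hox genes were above background on all 6 arrays, 24.2%, against 61.2% of all genes. They were Hoxa2, Hoxa3, Hoxa5, Hoxb9, Hoxc6, Hoxc9, Hoxd8 and Hoxd9. The other probe sets of Hoxa5 and Hoxc6 were below background on most arrays. Another 15 genes were below it on every array and 10 were in between. HoxA had 3 of 9 genes above background, HoxB 1 of 9, HoxC 2 of 7 and HoxD 2 of 8. By paralogue, 2 of 7 anterior genes (numbers 1 to 3), 3 of 12 central genes (4 to 8) and 3 of 14 posterior genes (9 to 13) were above background. At the 99th percentile of the receptor probe sets, 4.97, 5 genes were left: Hoxa2, Hoxb9, Hoxc6, Hoxd8 and Hoxd9. Probe sets differ in affinity, so these levels place a gene against background and do not rank the genes by transcript number.

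**Figure D1:**
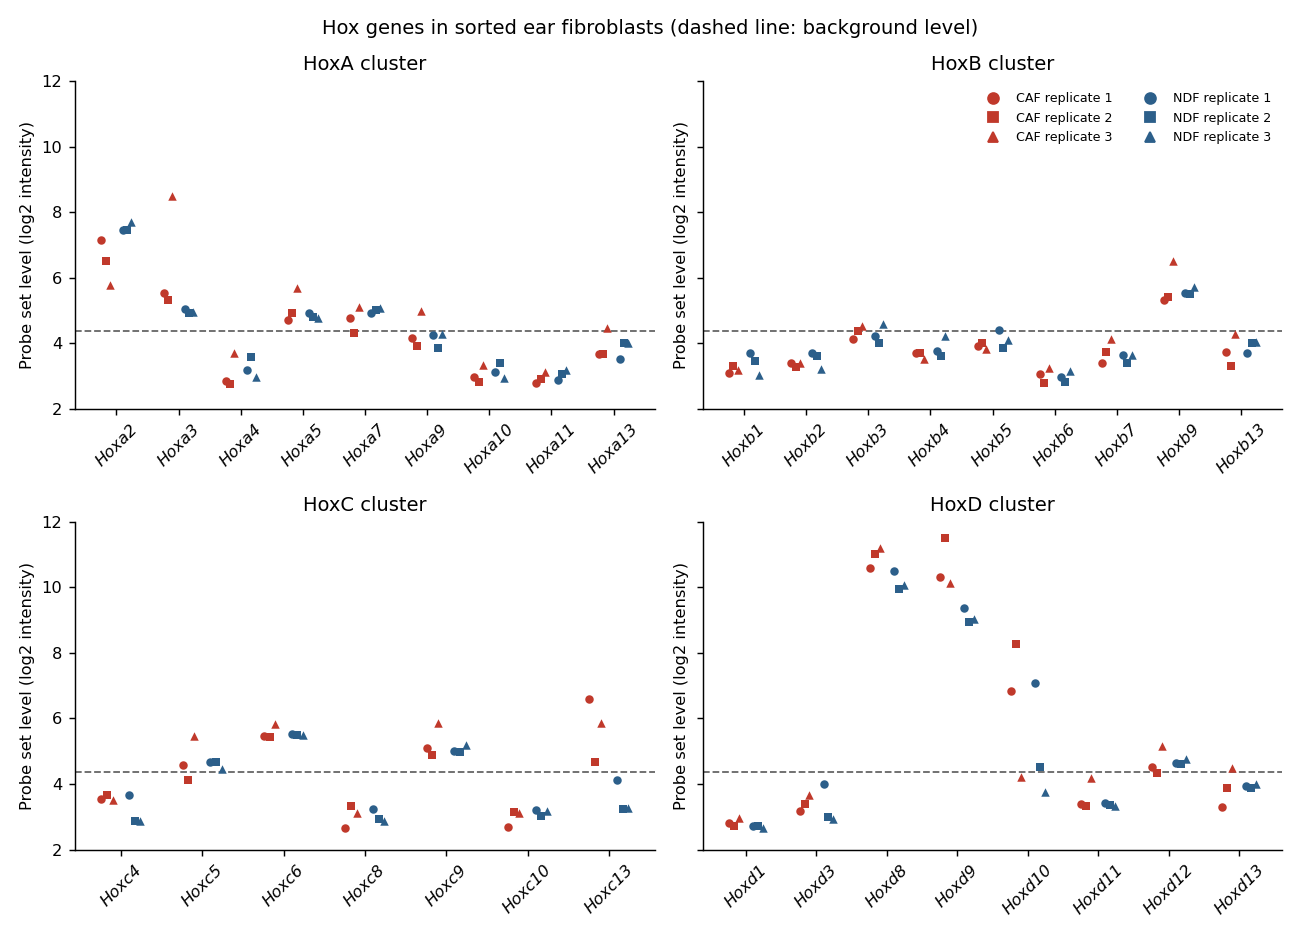
Level of each measured Hox gene on each array (log2 intensity, vertical axis) by cluster, with genes in order of paralogue number and CAF points to the left of NDF points. The dashed line is the background level of 4.36. Hoxd8 and Hoxd9 stand between 8.94 and 11.49 on all 6 arrays, and most other genes lie near or under the line.

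Between CAF and NDF no Hox gene passed the test across all genes. By limma, with Benjamini-Hochberg adjustment, 0 of 33 genes had an adjusted p under 0.05, where 0.517% of all genes did. The smallest adjusted p was 0.181, for Hoxc13. At an unadjusted p under 0.05 there were 4 genes, Hoxc13, Hoxd8 and Hoxd9 with higher values in CAF and Hoxa2 with lower values, against background shares of 8.95% in either direction, 4.93% higher and 4.02% lower. The arrays of the groups did not overlap for 6 genes, 5 with higher values in CAF (Hoxa3, Hoxc13, Hoxd1, Hoxd8 and Hoxd9) and 1 with lower (Hoxa2), where 15.4% of all genes did not overlap, 6.78% higher and 8.66% lower in CAF. The median difference was 0.07 over the Hox genes and -0.04 over all genes. Of the 33 genes, 27 differed by less than 0.5 log2 units, and the median half-width of a 95% interval, before adjustment over all genes, was 0.61. With arrays weighted by quality, Hoxc13 and Hoxd9 passed (adjusted p = 0.0326 and 0.0473), with differences of 2.67 and 1.504, where 2.41% of all genes passed.

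**Figure D2:**
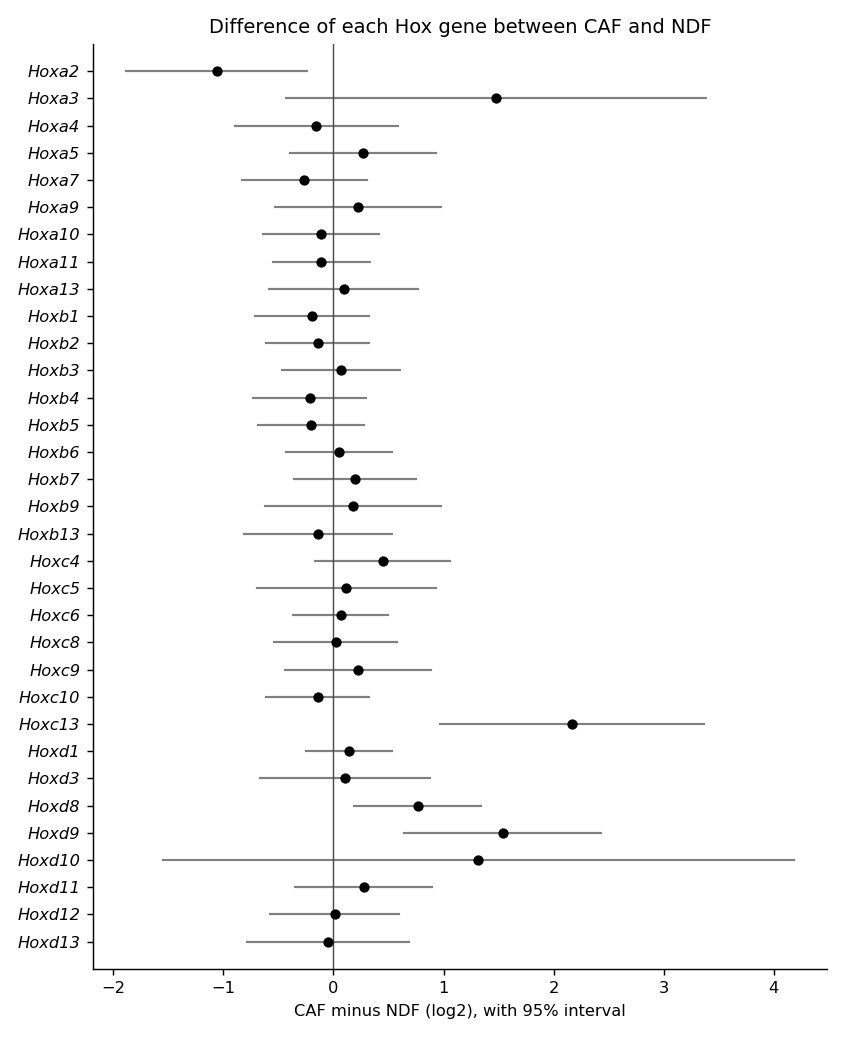
CAF minus NDF difference of each Hox gene (log2, horizontal axis) with its 95% interval from limma. Intervals leave out 0 for Hoxa2 on the lower side and for Hoxd8, Hoxd9 and Hoxc13 on the higher side, before adjustment over all genes.

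Hoxd8 and Hoxd9 were far above background on every array. Both lie in the middle of the HoxD cluster, on chromosome 2, and in the mouse they pattern the trunk and the proximal limb. For Hoxd8 the 3 CAF arrays read 10.59, 11.01 and 11.21, against 10.48, 9.95 and 10.08 in NDF. All CAF arrays were above all NDF arrays, although CAF replicate 1 and NDF replicate 1 were close. The means were 10.93 ± 0.32 in CAF and 10.17 ± 0.28 in NDF (SD, n = 3 each), a difference of 0.76 ± 0.24 (SE), or 1.70-fold (limma adjusted p = 0.378). This probe set is of a type that can match several transcripts. A further Hoxd8 probe set, not of that type, read 8.45, 8.73 and 9.20 in CAF against 8.62, 7.99 and 8.21 in NDF. There the groups overlapped, and the difference was 0.52 ± 0.27 (adjusted p = 0.829 over all probe sets).

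Hoxd9 had the wider gap. Its values were 10.32, 11.49 and 10.13 on the CAF arrays, against 9.37, 8.94 and 9.02 on the NDF arrays. The lowest CAF value was above every NDF value, and CAF replicate 2 was the highest. The means were 10.65 ± 0.74 in CAF and 9.11 ± 0.23 in NDF, a difference of 1.54 ± 0.38 (SE; 95% interval 0.64 to 2.43) or 2.90-fold (adjusted p = 0.21). The array with the highest Hoxd9 was not the one with the highest Hoxd8, which was CAF replicate 3. Endothelial markers had a mean level of 6.74 to 7.80 in CAF and 5.25 to 5.61 in NDF. Of these 10 markers 1 passed the test, 9 had higher means in CAF and Tek was lower, at -0.24. In the leukocyte lists above, 3 of 10 macrophage and dendritic cell, 3 of 9 neutrophil and 2 of 7 lymphocyte markers passed. Over all genes 0.517% passed. The endothelial and leukocyte lists separated the groups too, and their part in the Hoxd8 and Hoxd9 differences was not tested.

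Hoxd10, the next gene of the cluster, varied more between arrays of a group than between groups. It lies outside the rule for genes given array by array and was chosen after its values were seen. Its CAF arrays read 6.83, 8.28 and 4.22 and its NDF arrays 7.09, 4.51 and 3.77. So CAF replicates 1 and 2 and NDF replicate 1 were well above background, NDF replicate 2 was close to it, and CAF replicate 3 and NDF replicate 3 were below. The difference was 1.32 (95% interval -1.55 to 4.18, adjusted p = 0.859). Leaving out CAF replicate 3 gave 2.43 (adjusted p = 0.394), leaving out NDF replicate 1 gave 2.30 (adjusted p = 0.846), and the arrays overlapped in both cases. Without both it was 3.41 ± 0.52 (adjusted p = 0.0714), but these are the lowest CAF and the highest NDF array for Hoxd10, so leaving them out had to widen the difference. Beyond Hoxd8 to Hoxd10 the HoxD cluster was at or near background on both sides. Hoxd1 and Hoxd3 towards one end and Hoxd11 towards the other were below it on all arrays, and Hoxd13 was above it only in CAF replicate 3. Hoxd12 stood at 4.35 to 5.16 in CAF and 4.61 to 4.75 in NDF.

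**Figure D3:**
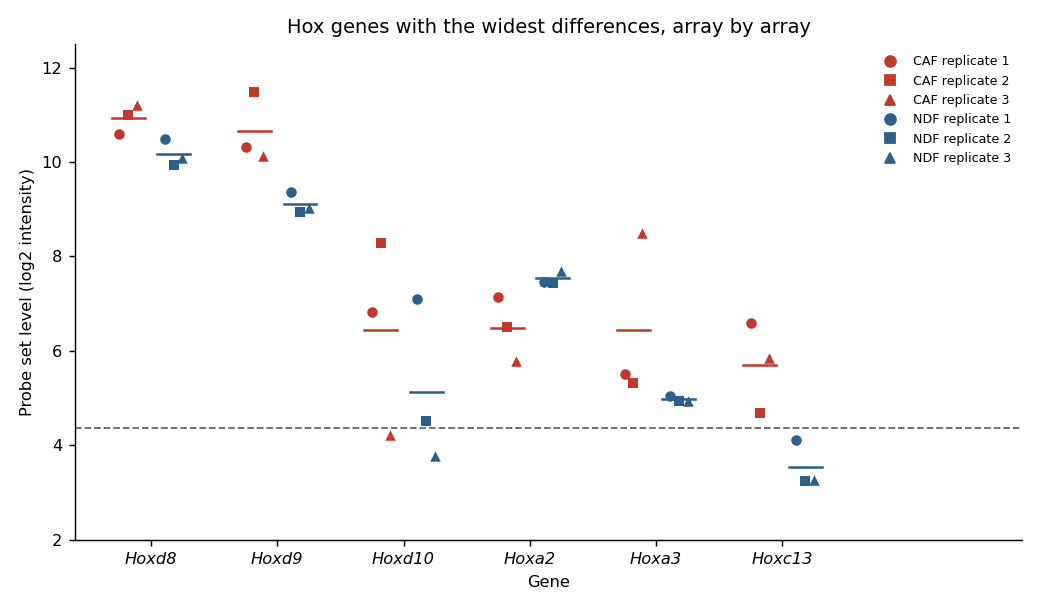
Level on each array (log2 intensity, vertical axis) of the 6 Hox genes with the widest CAF minus NDF differences, with CAF to the left of NDF, a bar at each group's mean and the background level of 4.36 dashed. Hoxd8, Hoxd9, Hoxa3 and Hoxc13 have all CAF points above all NDF points, Hoxa2 has all below, and Hoxd10 overlaps.

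Hoxa2, on chromosome 6, was the 1 gene whose CAF arrays were all lower. It read 7.14, 6.51 and 5.78 in CAF, against 7.46, 7.44 and 7.70 in NDF. Every CAF array lay below every NDF array, and the CAF arrays were spread widely while the NDF arrays were close together. The means were 6.48 ± 0.68 in CAF and 7.54 ± 0.14 in NDF, a difference of -1.06 ± 0.35 (SE) or 0.48-fold (adjusted p = 0.395). Without CAF replicate 3, the lowest array, the difference was -0.71 ± 0.23 (adjusted p = 0.282). Chondrocyte markers were also lower in CAF: 9 of 10 had lower means, with a median of -0.55, although none passed the test. Among the CAF arrays the chondrocyte markers were lowest in replicate 1, where Hoxa2 was highest. The part of the cell mixture in the Hoxa2 difference was not tested.

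Hoxc13 was above background on the CAF arrays and below it on the NDF arrays. The gene, on chromosome 15, is required in mouse and human for hair and nails, where it acts on hair keratin genes. It read 6.59, 4.68 and 5.85 in CAF, against 4.11, 3.24 and 3.27 in NDF. The groups did not overlap, and CAF replicate 2 was the lowest of its group. The means were 5.71 ± 0.96 in CAF and 3.54 ± 0.49 in NDF, so CAF exceeded NDF by 2.17 (95% interval 0.97 to 3.36, adjusted p = 0.181). Since the NDF values were under the background level, the 4.49-fold ratio holds on this scale only. Keratinocyte markers were also higher in CAF: 9 of 10 had higher means, none passed the test, and the median difference was 1.19. Krt15 had a lower mean in CAF, by -0.33. Their mean level was 10.26, 9.03 and 10.003 on the CAF arrays and 8.38, 8.52 and 8.53 on the NDF arrays. CAF replicate 2 was the lowest CAF array in both measures and replicate 1 the highest. Among the NDF arrays the orders differed, as replicate 1 had the lowest marker mean and the highest Hoxc13. All 10 keratinocyte markers were above background on all 6 arrays, NDF arrays included. The basal keratin Krt14 was at 12.10, 10.67 and 11.97 in CAF and 9.37, 9.002 and 9.81 in NDF. The part of keratinocyte RNA in the Hoxc13 difference was not tested.

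**Figure D4:**
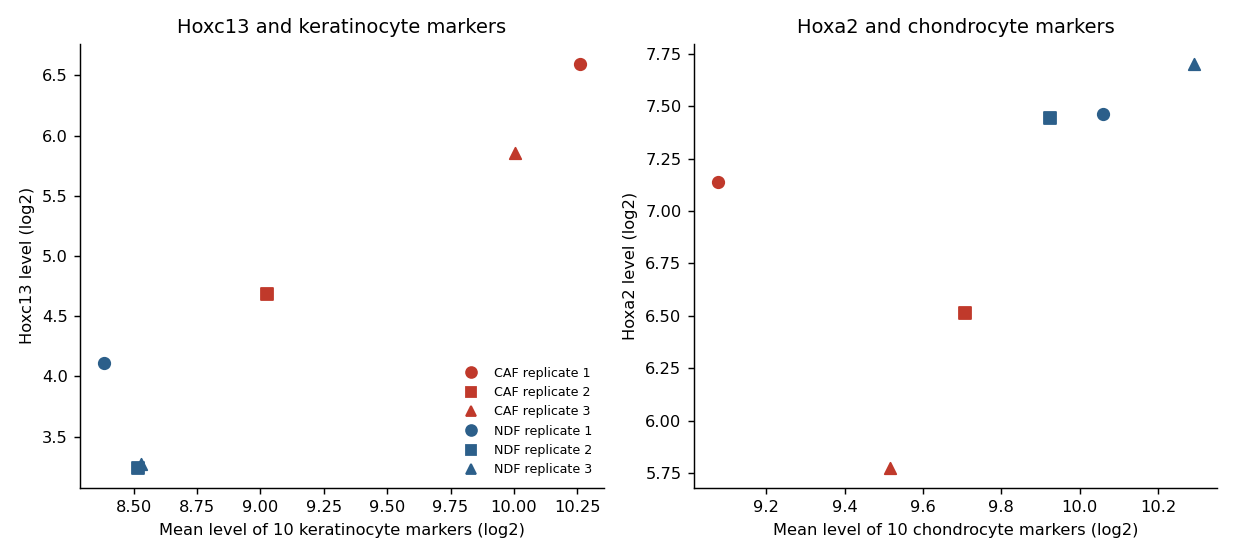
Left, Hoxc13 level against the mean level of the 10 keratinocyte markers, and right, Hoxa2 level against the mean level of the 10 chondrocyte markers (all log2), with 1 point per array. CAF arrays lie at upper right for Hoxc13 and at lower left for Hoxa2, and within CAF the order of the arrays is the same for both axes on the left and not on the right. Within NDF the order is the same for both axes on the right and not on the left.

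Hoxa3, which in the mouse directs the third pharyngeal arch and the thymus, gave different answers by probe set. The probe set with the highest mean, of a type that can match several transcripts, read 5.52, 5.33 and 8.50 in CAF against 5.04, 4.94 and 4.94 in NDF. Its CAF mean of 6.45 ± 1.78, against 4.97 ± 0.06 in NDF, rested on replicate 3, and the difference was 1.48 ± 0.80 (adjusted p = 0.694). Without that array it was 0.45 ± 0.16 (adjusted p = 0.311). A second probe set read 5.17, 5.70 and 6.39 in CAF against 5.08, 4.79 and 4.92 in NDF and did not overlap either. The third read 5.32, 5.17 and 5.36 against 5.63, 5.47 and 5.14 and leaned the other way, at -0.13. The dimmest probe set was at 3.27 to 4.04 in CAF and 3.65 to 4.08 in NDF.

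By the probe set that stood for each gene, Hoxa5, Hoxb9, Hoxc6 and Hoxc9 were a little above background, with nearly equal values on most arrays. In the mouse these genes take part in patterning the neck and thorax. By a probe set of a type that can match several transcripts, Hoxa5 read 4.71, 4.92 and 5.69 in CAF against 4.92, 4.80 and 4.78 in NDF. Its other probe set was above background in CAF replicate 3 only. That probe set read 2.90, 3.04 and 5.26 in CAF against 3.34, 3.16 and 3.23 in NDF. Hoxb9 read 5.33, 5.42 and 6.52 in CAF against 5.52, 5.50 and 5.71 in NDF. In both genes CAF replicate 3 was the high array and the other CAF arrays lay among or below the NDF arrays. Hoxc6 stood at 5.45, 5.44 and 5.82 in CAF and 5.51, 5.50 and 5.51 in NDF. Its other probe sets read 3.49 to 4.28 and 3.24 to 4.66 in CAF, and 3.14 to 3.67 and 3.40 to 3.69 in NDF. Of these values only the 4.66, in CAF replicate 3, was above background. Hoxc9 stood at 5.09, 4.89 and 5.86 in CAF and 5.01, 4.99 and 5.18 in NDF. Differences for these 4 genes were 0.06 to 0.27 (adjusted p = 0.882 to 0.970), and without CAF replicate 3 they were -0.025, -0.20, -0.060 and -0.067. Over the 33 Hox genes CAF replicate 3 was the highest of the 6 arrays for 18, or 54.5%, and over all genes for 34.7%. Among genes that were not above background on all arrays the shares were closer, with 12 of 25 Hox genes, or 48%, against 44.2% of all such genes.

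The remaining genes were close to background or below it. In HoxA, Hoxa7 was at 4.31 to 5.10 in CAF and 4.92 to 5.06 in NDF, while Hoxa4, Hoxa10 and Hoxa11 were below background on all arrays. Hoxa9 and Hoxa13 passed it in CAF replicate 3 only, and the other Hoxa9 probe set was below it on all arrays. Outside Hoxb9, HoxB genes ranged from 2.78 for Hoxb6 to 4.60 for Hoxb3. Hoxb3 was above background on 3 arrays and Hoxb5 on 1, and the other 6 were below it on all. HoxB genes pattern the hindbrain and upper trunk, and their differences here ran from -0.22 for Hoxb4 to 0.19 for Hoxb7. In HoxC, Hoxc4, Hoxc8 and Hoxc10 were below background throughout, and Hoxc5 was at 4.12 to 5.46 in CAF and 4.46 to 4.67 in NDF. The other Hoxc5 probe sets were below background on all arrays. Hoxc4 had a difference of 0.45 with overlapping arrays. Hoxd1, which in the mouse shapes pain-sensing neurons, had higher values on all CAF arrays, at 2.82, 2.73 and 2.95 against 2.70, 2.72 and 2.66. All of these are below background and the difference was 0.14 (adjusted p = 0.897).

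Probe sets that name a Hox antisense transcript or 2 Hox genes fell outside the rule. Of these, 1 probe set of the antisense transcript Hoxd3os1 was above background on all arrays, at 4.98, 6.25 and 4.49 in CAF against 4.52, 4.76 and 4.60 in NDF (difference 0.61, adjusted p = 0.925 over all probe sets). Its other probe set was above background on 2 arrays. Those for Hoxb5os, for Hoxa11os, for Hoxd3 with Hoxd4 and for Hoxb7 with Hoxb8 were below it on all arrays.

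Partners and regulators of Hox proteins were mostly present and did not pass the test. The counts at an unadjusted p under 0.05 given for these lists are to be read against 4.93% of all genes higher and 4.02% lower in CAF. Of 10 measured cofactor genes 9 were above background on all arrays and none passed by limma, with 1 lower at an unadjusted p under 0.05 and a median difference of 0.01. That gene was Meis2, a DNA-binding partner of Hox proteins, at 10.30, 10.12 and 10.18 in CAF against 10.57, 10.55 and 10.73 in NDF (difference -0.42, adjusted p = 0.518). Meis2 arrays did not overlap between the groups. Gmnn, which encodes geminin, Pknox2 and Pbxip1 had the next smallest p-values, at 1.33, -0.45 and 0.14. Among 30 Polycomb and Trithorax genes 28 were above background and none passed, with 1 lower at an unadjusted p under 0.05 and a median of -0.05. It was Men1, which encodes menin, a partner of the Trithorax-type methyltransferases, at 5.12 ± 0.20 in CAF and 5.81 ± 0.36 in NDF (adjusted p = 0.433). Mtf2, Kmt2b and Phf1 had differences of 0.46, 0.53 and 0.38. Of 17 genes for retinoid signalling and caudal factors, which set Hox expression in the embryo, none passed, and at an unadjusted p under 0.05 there was 1, which was higher. Aldh1a3, an enzyme that makes retinoic acid, was at 6.81, 5.44 and 8.37 in CAF against 4.98, 4.76 and 3.94 in NDF (difference 2.31, adjusted p = 0.353). The retinoic acid receptor Rarg, the enzyme Aldh1a2 and the retinoid X receptor Rxrb had the next smallest p-values, with differences of -0.47, 0.79 and 0.54. Aldh1a2 was above background on only 2 arrays. The caudal genes Cdx1, Cdx2 and Cdx4 were not above background on all arrays.

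Other position genes, of the head, limb and trunk, were present in part, and none passed the test. Of 38 head and ear genes 21 were above background on all arrays, and of 17 limb and trunk genes 6 were. At an unadjusted p under 0.05 there were 2 head and ear genes and 1 limb and trunk gene, all with higher values in CAF, where 4.93% of all genes were, and the medians of these lists were -0.07 and 0.03. Tbx1, a T-box gene of the pharyngeal arches, was at 5.64 ± 0.81 in CAF and 4.42 ± 0.11 in NDF (difference 1.22, adjusted p = 0.393). Tfap2a, which acts in cranial neural crest and in epidermis, was at 9.52 ± 1.06 and 8.19 ± 0.26 (difference 1.32, adjusted p = 0.505), with CAF replicate 3 the highest array for both genes. Foxc1 and Emx2 had differences of 0.44 and -0.43. In the limb and trunk list Tbx3, a T-box gene also used in skin appendages, read 7.41, 8.28 and 9.61 in CAF against 7.60, 5.47 and 6.48 in NDF (difference 1.92, adjusted p = 0.468). Its groups overlapped. Tbx4, Shox2 and Tbx2 followed with -0.31, 0.61 and -0.55. Tbx4 was below background on all arrays and Tbx2 on all but 1. Evx2, the neighbour of the HoxD cluster, was not above background on all arrays. Of 15 other homeobox genes of skin none passed, and at an unadjusted p under 0.05 there were 2 higher and 1 lower, against 4.93% and 4.02% of all genes. Hopx, an atypical homeobox gene, was at 7.84, 7.23 and 7.32 in CAF against 8.52, 9.46 and 8.93 in NDF (difference -1.51 ± 0.30, adjusted p = 0.121). Pou3f1, a POU factor of differentiating epidermis, was at 7.31, 7.08 and 8.74 against 6.21, 5.24 and 4.84 (difference 2.28 ± 0.53, adjusted p = 0.181). Neither gene's arrays overlapped between groups. Satb1 and Cux1 had differences of 1.00 and 0.44. Keratinocyte markers, at 9.03 to 10.26 in CAF and 8.38 to 8.53 in NDF, were higher in CAF, as were Pou3f1 and Tfap2a. Within CAF both genes were highest in replicate 3 and the markers in replicate 1. The part of keratinocyte RNA in these values was not tested.

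**Figure D5:**
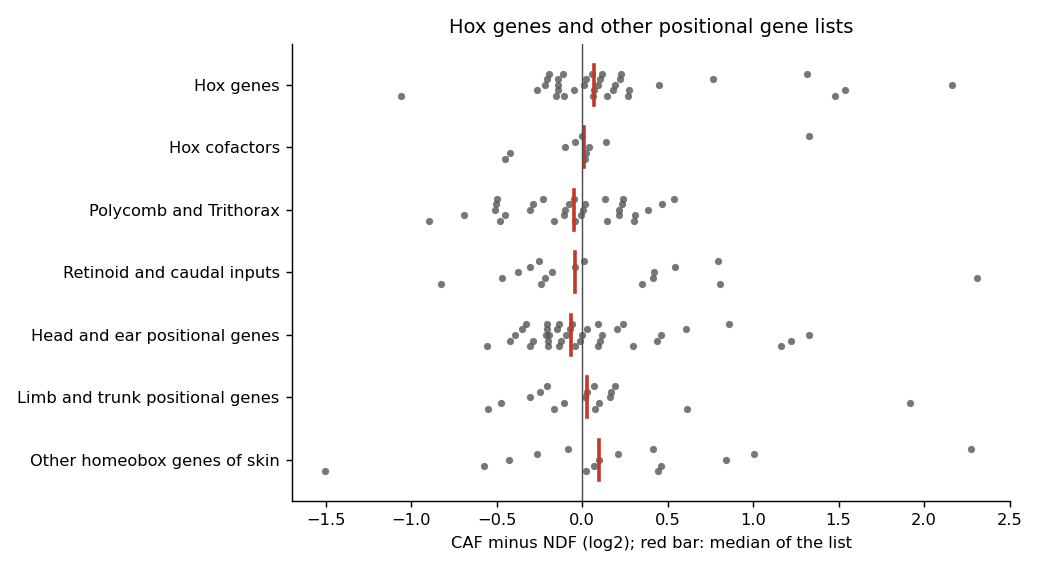
CAF minus NDF difference (log2, horizontal axis) of each Hox gene and of each measured member of the 6 other lists, with 1 point per gene and a red bar at each list's median. Medians lie between -0.07 and 0.10, and single genes such as Hoxc13, Aldh1a3, Tbx3, Pou3f1 and Hopx stand away from them.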

How the data were processed

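Expression was measured on Affymetrix mouse genome arrays. The authors deposited log2 intensities, made with GCOS and RMA per the submitters' processing notes, with no version given in the sources used here. Per the labels' protocols, RNA went through a single amplification with the WT-Ovation kit before biotin labelling. Background subtraction and quantile normalisation are part of RMA, and they compress low values. Of 45101 probe sets 64 are controls, 34945 name 1 gene, 932 name several and 9160 were not named by the platform annotation. Of the single names 34741 matched RefSeq (GRCm38.p6) by gene identifier and 0 symbols changed. The build of the array files is not given, so the only coordinates printed are those of RefSeq promoters.

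Each gene was represented by its brightest probe set, by mean over the 6 arrays. The test was limma 3.58.1 in R 4.3.3 (lmFit, eBayes, two-sided, group as the only term), with Benjamini-Hochberg adjustment over 18193 genes or, for single probe sets, over 45037. Arrays are given one by one for Hox genes above background on all 6 arrays, with an unadjusted p under 0.05 or with no overlap between groups. Of each other list the 4 genes with the smallest p are named. Hoxd10, Cdx1, Cdx2, Cdx4 and Evx2 are named outside these rules, after their values were seen. A gene with several probe sets had more chances of passing the background level than a single receptor probe set. No detection calls or scanner files were used here, and all columns were mapped to samples. Members, lists and tests were chosen with earlier results of these data known. The fit was tested on simulated data with known shifts, with 50 genes per size. It recovered 6% of shifts of 1 log2 unit, 66% of 2 units and 90% of 3 units, with 5 false calls. The simulation gave all arrays of a gene the same spread, while the real CAF replicate 3 had a quality weight of 0.17. So these rates need not hold for the real arrays. Deviations of same-numbered CAF and NDF arrays from their group means correlated at -0.15, 0.11 and -0.01. With 3 arrays a group, these correlations cannot settle whether the numbers pair the samples. Alternatives were a replicate block, other normalisations, probe set choices, filters, priors, array weights, thresholds, background levels and arrays left out. Plots were made with matplotlib 3.10.9 (Python 3.11.15).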

Additional observations from a re-analysis of the deposited data

How the results depend on the processing

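With limma the count of Hox genes past an adjusted p of 0.05 was 0 under all alternatives run except array quality weights, which gave 2 (Hoxc13 and Hoxd9), and leaving out any 1 array gave 0 each time. The count over all genes was 94, and it was 20 with the replicate block, in which no Hox gene passed, 155 with an intensity trend, 438 with array quality weights and 198 at an adjusted p under 0.1. Leaving out 1 array gave 5 to 156 genes, with 5, 8 and 11 without NDF replicate 3, 2 and 1, 40 without CAF replicate 2 and 156 without CAF replicate 3. The count of Hox genes without overlap was 6. It was 4 with equal array medians, with probe sets averaged per gene and without probe sets that can match several transcripts, 6 and 7 with the other normalisations, and 6 to 12 with 1 array left out, where fewer arrays overlap less often for any gene (31.5% of all genes without CAF replicate 3). It was 18 without CAF replicate 3 and NDF replicate 1 together, where 45.5% of all genes did not overlap. The count above background was 8. It was 5 at the 99th percentile, 12 at the 90th, 14 where only 3 arrays had to pass, and 8 to 11 with 1 array left out. With probe sets averaged per gene it was 6. Without probe sets that can match several transcripts it was 7, as Hoxa5 dropped out.

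Hoxa2, Hoxc13, Hoxd1, Hoxd8 and Hoxd9 kept their direction in the 13 alternatives run per gene and with array quality weights. Their groups did not overlap, so leaving out arrays, the replicate block and the weights could not reverse them. For those with 1 probe set, the probe set choices repeated the main value. Over the 13 the ranges were -1.39 to -0.71, 1.72 to 2.68, 0.08 to 0.19, 0.52 to 0.94 and 1.11 to 1.92, and the weighted difference of Hoxa2 was -0.65. Array quality weights turned Hoxa5, Hoxb9, Hoxc6 and Hoxc9 to -0.019, -0.21, -0.039 and -0.0050. Without probe sets that can match several transcripts Hoxa3 was at -0.13, because another probe set then stands for the gene. Without CAF replicate 3 the differences were -0.025 for Hoxa5, -0.20 for Hoxb9, -0.060 for Hoxc6 and -0.067 for Hoxc9, and with any 1 array left out they ran from -0.025 to 0.47, from -0.20 to 0.39, from -0.060 to 0.13 and from -0.067 to 0.42. Leaving out NDF replicate 1 as well gave -0.23 for Hoxb9, -0.058 for Hoxc6 and -0.091 for Hoxc9. Most members gave dim signals near the background level, and their differences rest on 3 arrays a group.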
